A study of Mus musculus with 2 samples.

Results

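MHC class I molecules and the immunoproteasome were followed through 10 genes, out of 32285 genes in the count tables: H2-K1, H2-D1, B2m, Tap1, Tap2, Tapbp, Psmb8, Psmb9, Psme1 and Nlrc5. The genes were chosen by name as the working parts of class I antigen presentation, and all 10 were found in both tables. The study profiled live CD45+ cells, sorted from colonic lamina propria of 8 weeks old C57BL/6 mice, one by one with droplet 5' RNA sequencing that counts unique molecular identifiers (UMIs). Both groups had received 2.0% dextran sulfate sodium, a chemical that injures the colon lining, in drinking water for 7 days and then plain water for 7 days, and were killed on day 14. One group was wild type, and the other carried a transgene for E4BP4, a transcription factor encoded by Nfil3, that is described as overexpressed in macrophages. Neither the promoter that drives the transgene nor the number of animals in a library is given in the labels. Each genotype is 1 library of 1 sample, so no difference between them has a replicate check, and no p-value is given. The 95% intervals given after values are exact and hold counting error alone, so error from PCR and from the sampling of cells and animals comes on top.

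Class I molecules show peptides from inside a cell to CD8 T cells and natural killer cells. The immunoproteasome, in which inducible subunits replace the constitutive catalytic ones, cuts proteins into peptides, a transporter carries them into the endoplasmic reticulum, and a loading complex places them on a heavy chain bound to beta-2-microglobulin. Interferon gamma raises most of these genes together, and NLRC5 drives heavy chain transcription through a shared promoter module. In an inflamed colon nearly every nucleated cell uses this route, and lymphocytes and dendritic cells are known for high levels of it.

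RefSeq promoters of GRCm38.p6, the build of the deposited tables (mm10), held 8 of the 10 genes. The windows of both heavy chain genes are shown because these genes behaved differently below although a large part of their upstream bases is closely alike. In the best local alignment of 250 upstream bases each, 161 of 177 aligned bases were identical (91%). The B2m window and the bases between the divergent starts of Psmb9 and Tap1 are shown for comparison. Each window reads 5' to 3' on the strand named, and ends at the base before the RefSeq start (the last one ends before Tap1 and begins after Psmb9). Capitals mark matches on either strand. The first capitals in each heavy chain window are the NF-kB site of class I enhancer A, and the others there are TGACGC (the core of the X2 box) and CCAAT (the core of the Y box, ATTGG on the other strand). From the RefSeq start, the enhancer A site begins at -111 in H2-K1 and at -171 in H2-D1. The last bases of the H2-D1 window, with its last CCAAT, thus have no counterpart in the H2-K1 window. The first capitals of the B2m window match the core of an interferon-stimulated response element, which is GAAA, any 2 bases and GAAA. Only these exact letters were searched, so a window without this mark, those of the heavy chains included, may still hold a divergent form of the element.
H2-K1, chr17:34000348-34000477, minus strand: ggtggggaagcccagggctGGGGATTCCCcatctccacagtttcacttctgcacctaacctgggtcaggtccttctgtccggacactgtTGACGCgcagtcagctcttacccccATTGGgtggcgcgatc
H2-D1, chr17:35262904-35263093, plus strand: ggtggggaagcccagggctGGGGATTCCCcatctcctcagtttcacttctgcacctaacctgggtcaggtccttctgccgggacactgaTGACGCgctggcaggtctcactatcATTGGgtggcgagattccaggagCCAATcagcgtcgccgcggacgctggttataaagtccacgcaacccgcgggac
B2m, chr2:122147537-122147686, plus strand: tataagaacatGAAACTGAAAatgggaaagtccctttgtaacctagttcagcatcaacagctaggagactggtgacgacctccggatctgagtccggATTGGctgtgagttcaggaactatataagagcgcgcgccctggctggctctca
Psmb9-Tap1, chr17:34187331-34187555, plus strand: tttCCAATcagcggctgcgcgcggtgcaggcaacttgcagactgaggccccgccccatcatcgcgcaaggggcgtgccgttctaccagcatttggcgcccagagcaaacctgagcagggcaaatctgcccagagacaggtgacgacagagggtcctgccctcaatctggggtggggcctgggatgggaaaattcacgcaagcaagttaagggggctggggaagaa

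The enhancer A letters were in both heavy chain windows and, over 250 upstream bases, in 28 of all 32851 RefSeq promoters (0.0852%). The X2 core was in both as well, against 6.12% of all promoters. The Y core, in all 4 windows shown, is common (33.8%), and the interferon element core in the B2m window was in 2.98%. No 2 of these motifs overlapped in the windows shown. A match is a description of letters, not evidence of binding.

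On the annotation of the same build, 7 of the 10 genes lie on chromosome 17. H2-K1 spans 33996017 to 34000347 on the minus strand and H2-D1 spans 35262730 to 35267499 on the plus strand. Psmb9 (34181987 to 34187764, minus), Tap1 (34187553 to 34197225, plus), Psmb8 (34197721 to 34201454, plus) and Tap2 (34203527 to 34216321, plus) sit within 34335 bases. Some of these annotated ends differ from the RefSeq starts used for the windows. The H2-D1 window lies inside the annotated H2-D1, and the Psmb9-Tap1 window inside the annotated Psmb9, so they are upstream by RefSeq only. The annotated Psmb9 and Tap1 share 212 bases on opposite strands, and whether counting used the strand is not given in the sources used here, so reads there are uncertain. Reads of H2-K1, H2-D1, H2-Q6 and H2-Q7, near-identical paralogs, can be split between genes and are uncertain in the same way.

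The deposited metadata hold 6466 cells in wild type and 7026 in the library labelled transgenic, with medians of 2700 and 2428 UMIs per cell, in 10 numbered clusters that hold from 103 to 2410 cells of a library. Marker lists gave names to 6 of the 10 clusters: B-like (cluster 0), macrophage-like (1), monocyte-like (3), neutrophil-like (6), dendritic-like (8) and fibroblast-like (9). Clusters 2 (led by Lef1, Csf2 and Tcf7) and 4 (led by Gzma, Il17a and Xcl1) held lymphoid markers of more than one type and are called lymphoid. Clusters 5 (led by Mcpt1, Mcpt2 and Cma2) and 7 (led by Hbb-bs, Fcgbp and Hba-a1) hold few UMIs per cell and stay unnamed. In cluster 5, 7 of 8 mast cell markers were at least 2-fold higher than in the other clusters pooled. In cluster 7 that held for 6 of 6 epithelial and 6 of 10 B cell markers. Fibroblast-like cells carried the sort marker Ptprc at 59.6 and 99.9 CPM (UMIs of the gene per 1000000 UMIs of the cluster in that library), the lowest of the 10 clusters. The 2 count tables share 142 barcodes, 67 of them metadata cells of both libraries. Nfil3, the gene of the transgene, was at 84.4 CPM in wild type and 73.8 CPM in transgenic-labelled macrophage-like cells (ratio 0.874, 0.724 to 1.06) and at 272 and 235 CPM in monocyte-like cells (ratio 0.864, 0.778 to 0.959), so it was not higher and goes against the label. Whether the transgene's RNA is counted as Nfil3 is not stated in the sources used here, and every ratio below compares the library labelled transgenic with the wild type library, not the genotypes.

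**Figure D1:**
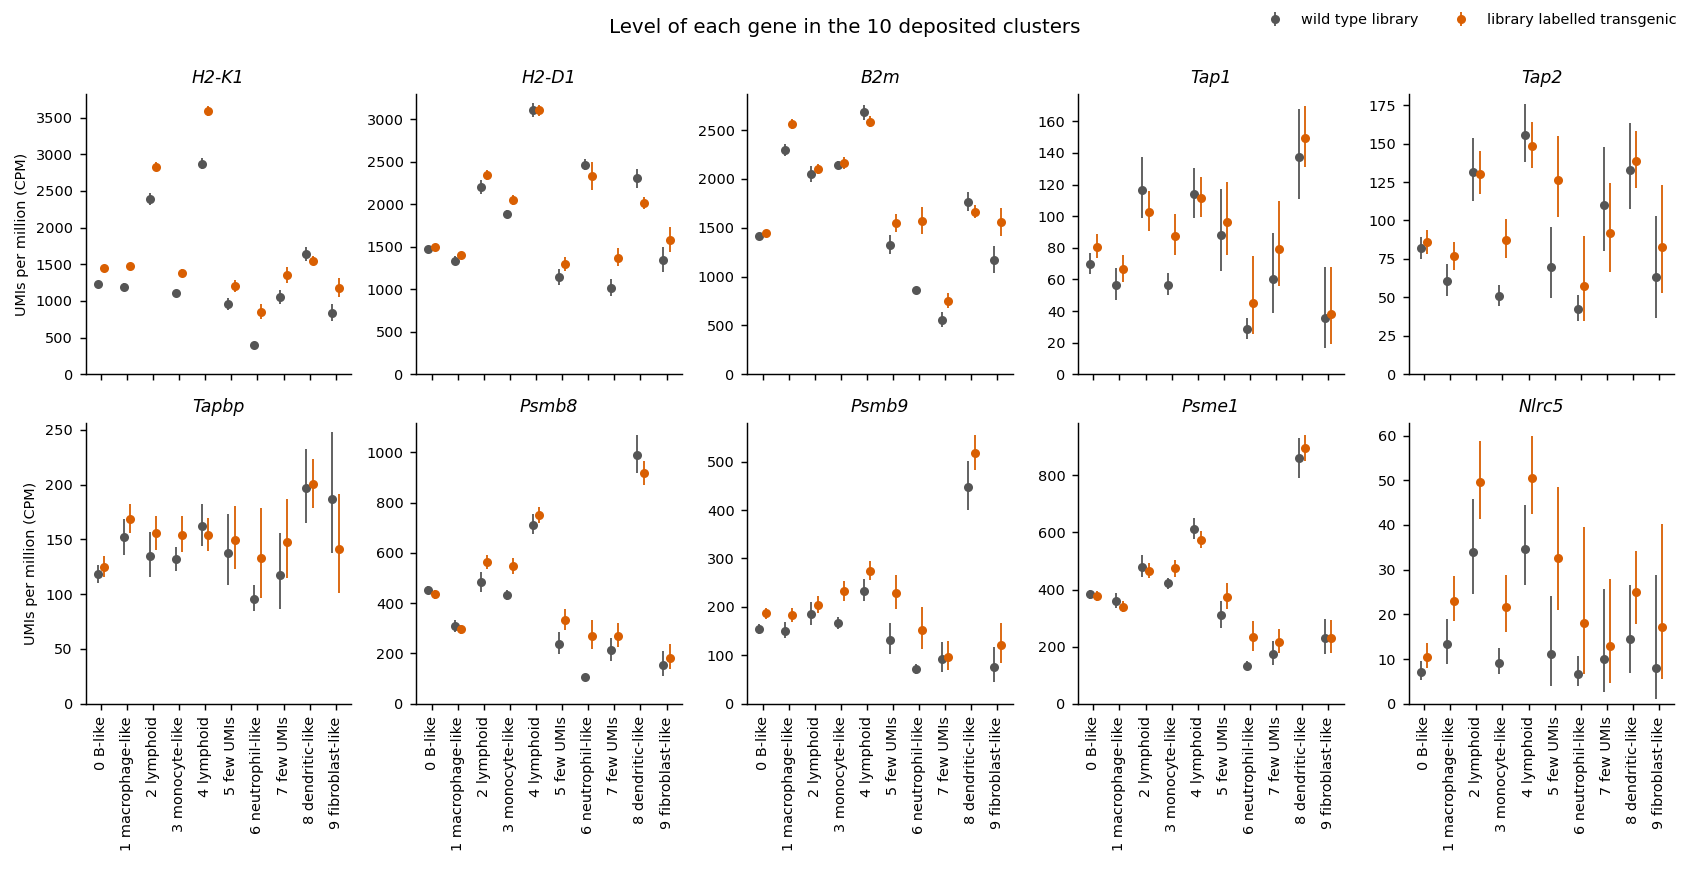
Level of each of the 10 genes (vertical axis, CPM, linear from 0) in the 10 deposited clusters (horizontal axis), with grey points for the wild type library, orange points for the library labelled transgenic and bars for exact 95% Poisson intervals. H2-K1 points of the labelled transgenic library lie above the wild type ones in 9 of 10 clusters, and the dendritic-like cluster stands highest for Psmb8, Psmb9 and Psme1 in both libraries.

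The classical heavy chains H2-K1 and H2-D1 present the peptide, and they differed from each other across cell types and between the libraries. In the wild type library H2-K1 ran from 396 CPM in neutrophil-like cells to 2871 CPM in lymphoid cluster 4, a 7.25-fold span, with 2387 CPM in lymphoid cluster 2, 1641 CPM in dendritic-like cells, 1226 CPM in B-like cells and 1193 CPM in macrophage-like cells. B-like and macrophage-like cells were neighbours in that order whose intervals overlapped. H2-D1 spanned only 3.06-fold, from 1016 CPM in cluster 7 to 3104 CPM in lymphoid cluster 4, and neutrophil-like cells stood second for it at 2465 CPM. Neutrophil-like cells were therefore the lowest cluster for one heavy chain and among the highest for the other, in the wild type library and, at 853 and 2327 CPM, in the labelled transgenic library as well.

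H2-K1 was higher in the labelled transgenic library in 9 of 10 clusters. In B-like cells it stood at 1226 CPM in wild type and 1447 CPM in the labelled transgenic library, a ratio of 1.18 (1.14 to 1.22). Macrophage-like cells held 1193 and 1476 CPM (ratio 1.24, 1.18 to 1.30). Monocyte-like cells held 1114 and 1379 CPM, with the same ratio of 1.24 (1.18 to 1.30). These 3 clusters of unlike cells thus gave ratios that lie close together. Lymphoid clusters 2 (2387 and 2830 CPM) and 4 (2871 and 3591 CPM) gave 1.19 (1.14 to 1.24) and 1.25 (1.21 to 1.29). Clusters 5 and 7 gave 1.25 and 1.29 (0.934 for cluster 5 when the cells were clustered anew without these genes), and fibroblast-like cells, with 212 and 342 UMIs, gave 1.40 (1.18 to 1.67). In fibroblast-like cells 5 cells held 33.5% of the H2-K1 UMIs in wild type and 22.2% in the labelled transgenic library. The exception was the dendritic-like cluster, at 1641 and 1547 CPM, with a ratio of 0.943 (0.879 to 1.01).

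The interval of H2-K1 lay above 1 in all 9 of those clusters. Of the 3249 genes with at least 20 UMIs over both libraries in each of the 10 clusters, 9.36% had a ratio above 1 in at least 9 clusters, and 1.72% had an interval above 1 in at least 9. A gene with many UMIs has narrow intervals, and the 10 clusters come from the same 2 libraries, so they do not repeat the comparison independently. Only the neutrophil-like ratio, 2.16, passed 1.5-fold, in a cluster where 52.1% of all genes were that much higher and their median ratio was 1.55.

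H2-D1 showed smaller differences. Its ratio had a median of 1.06 over the 10 clusters and ran from 0.873 to 1.35. In lymphoid cluster 4 it was at 3104 CPM in both libraries (ratio 1.00, 0.966 to 1.03), where H2-K1 gave 1.25. In B-like cells it was at 1478 and 1496 CPM (ratio 1.01, 0.982 to 1.04). Its highest ratio, 1.35 (1.19 to 1.53), was in cluster 7. In dendritic-like cells it was lower, at 2303 and 2010 CPM (ratio 0.873, 0.822 to 0.927), the one interval below 1 among the 98 pairs of gene and cluster tested.

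**Figure D2:**
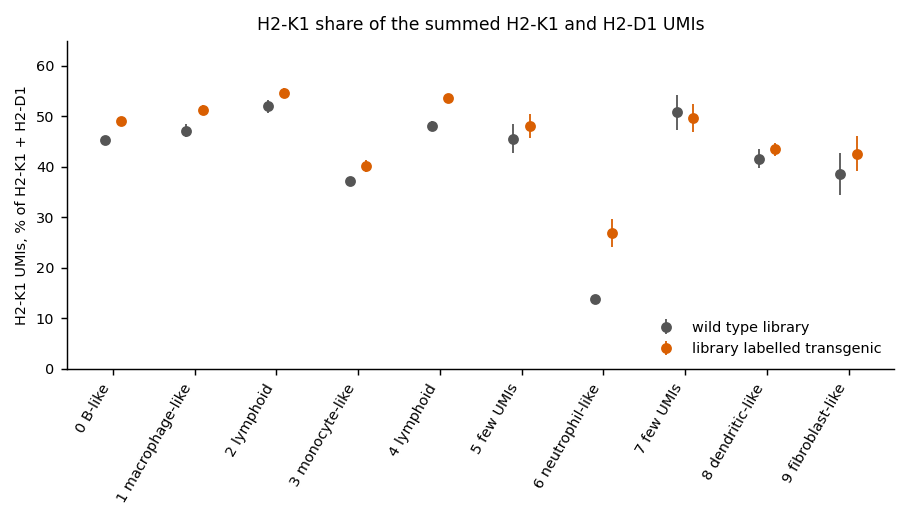
H2-K1 UMIs as a percent of the summed H2-K1 and H2-D1 UMIs (vertical axis) in the 10 deposited clusters, grey for the wild type library and orange for the library labelled transgenic, with exact 95% Clopper-Pearson intervals. The orange point is higher in 9 of 10 clusters, and both neutrophil-like points (13.8% and 26.8%) lie below those of all other clusters.

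The balance of the heavy chains was therefore described within each cluster, a quantity chosen after their levels were seen. It does not depend on the scaling to total UMIs, because both genes are counted in the same cells. H2-K1 made up 45.3% of the summed UMIs in wild type B-like cells and 49.2% in the labelled transgenic library. The values were 47.1% and 51.3% in macrophage-like cells, and 37.1% and 40.2% in monocyte-like cells. In lymphoid cluster 4 they were 48.1% and 53.6%. The share was higher in the labelled transgenic library in 9 of 10 clusters, with cluster 7 the exception (50.9% and 49.7%). The intervals of both libraries lay apart in clusters 0, 1, 2, 3, 4 and 6.

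B2m, the light chain that every class I heavy chain needs, followed neither heavy chain closely. In wild type cells it ran from 560 CPM in cluster 7 to 2683 CPM in lymphoid cluster 4, with 2298 CPM in macrophage-like cells and 1421 CPM in B-like cells. Between libraries its ratio was 1.02 (0.988 to 1.05) in B-like cells, 1.01 (0.976 to 1.05) in monocyte-like cells and 0.964 (0.929 to 1.00) in lymphoid cluster 4. It was 1.12 (1.08 to 1.16) in macrophage-like cells, at 2298 and 2565 CPM. Fibroblast-like cells (1168 and 1557 CPM, ratio 1.33, 1.15 to 1.55) and cluster 7 (560 and 755 CPM, ratio 1.35, 1.14 to 1.60) gave larger ratios. The interval lay above 1 in 5 of 10 clusters and below 1 in 0. Among the 5 was the neutrophil-like cluster, with a ratio of 1.83 next to a median of 1.55 for all genes. B2m has many UMIs and so narrow intervals, and the share of all genes with such a count was not computed.

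**Figure D3:**
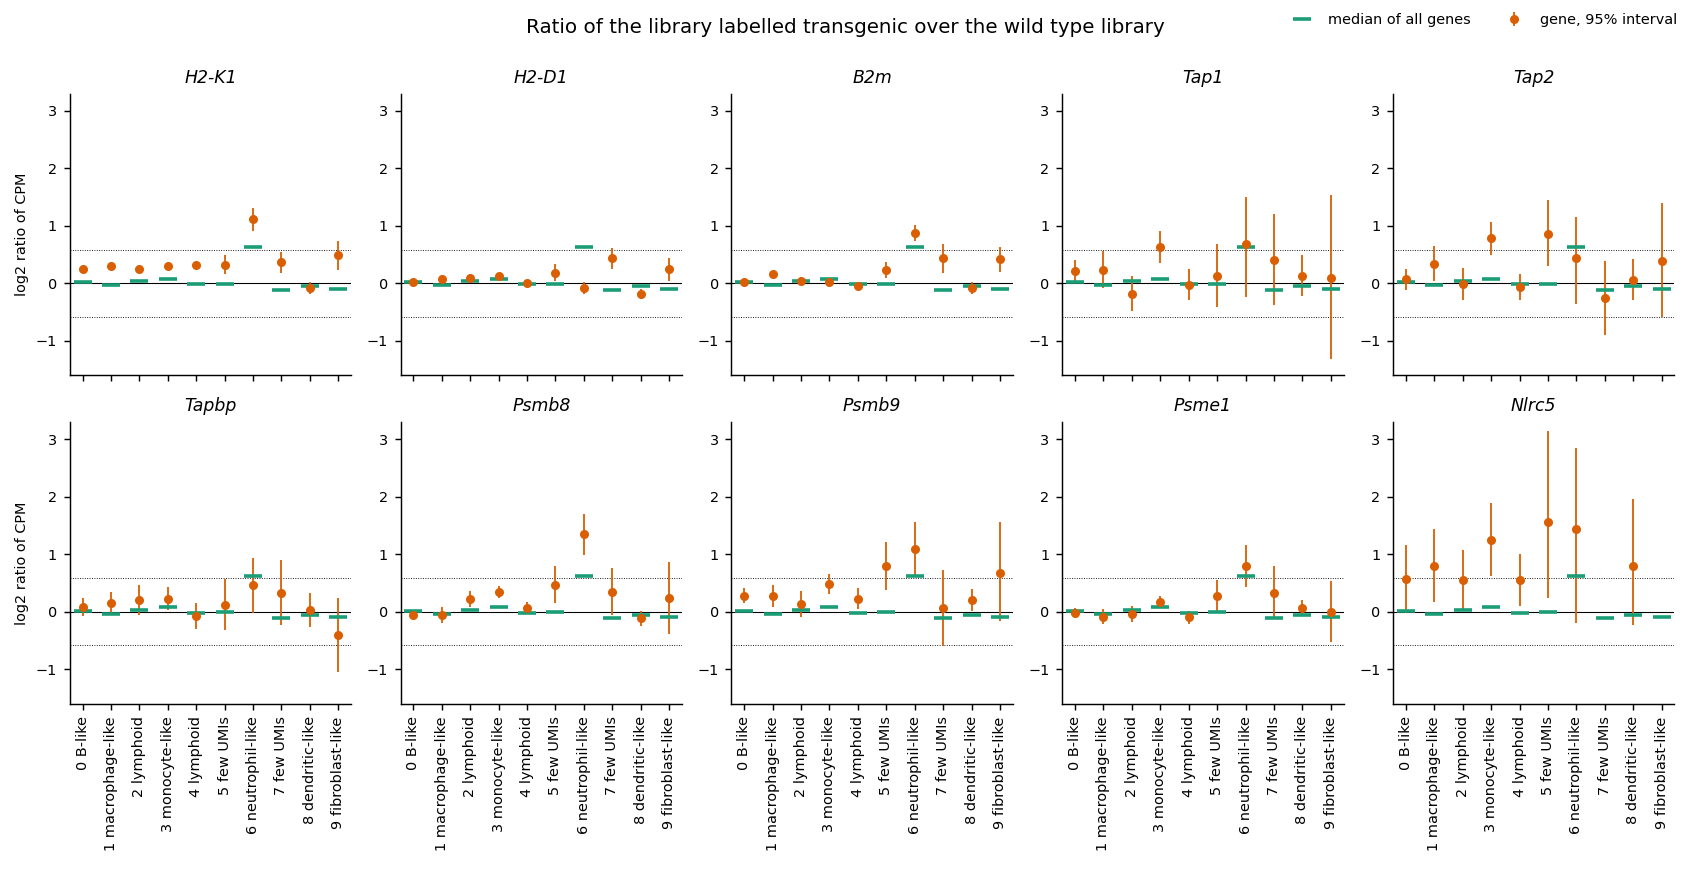
Log2 ratio of CPM in the library labelled transgenic over the wild type library (vertical axis) for each gene in the 10 deposited clusters (horizontal axis), with orange points and exact 95% intervals where both libraries together hold at least 20 UMIs. Green dashes are the median over all genes of the cluster, dotted lines mark 1.5-fold either way, and Nlrc5 and Psmb9 lie above the line of no difference in every cluster shown.

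Tap1 and Tap2 form the transporter that moves peptides into the endoplasmic reticulum, and Tapbp (tapasin) links it to empty class I molecules. Dendritic-like cells held the highest Tap1 level in both libraries (137 and 150 CPM), and wild type neutrophil-like cells the lowest (28.4 CPM). Lymphoid cluster 4 held the highest Tap2 level (156 and 148 CPM), with dendritic-like cells next (133 and 138 CPM). These 3 genes rest on far fewer UMIs than the heavy chains, and for Tap2 and Tapbp all 9 pairs of neighbours in the order of clusters had overlapping intervals in both libraries. Tapbp was the most even of the 10 genes across wild type clusters, from 95.9 CPM in neutrophil-like to 197 CPM in dendritic-like cells, a 2.05-fold span.

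In monocyte-like cells both transporter genes passed 1.5-fold. Tap1 was at 56.7 CPM in wild type and 87.8 CPM in the labelled transgenic library (ratio 1.55, 1.28 to 1.88), and Tap2 at 50.9 and 87.3 CPM (ratio 1.72, 1.41 to 2.09). In finer deposited cluster 3, where most monocyte-like cells fall, neither passed it, with 1.29 (1.04 to 1.61) for Tap1 and 1.39 (1.11 to 1.74) for Tap2. Tap1 also passed it in neutrophil-like cells, as did 52.1% of all genes there, and its interval held 1 (ratio 1.60, 0.850 to 2.81). Tap2 was also at least 1.5-fold higher in cluster 5, at 69.8 and 127 CPM (ratio 1.81, 1.23 to 2.72). In B-like cells both were within 1.5-fold, with ratios of 1.15 (1.01 to 1.32) for Tap1 and 1.05 (0.923 to 1.19) for Tap2. In lymphoid clusters 2 and 4 all intervals of both genes held 1. Tapbp was within 1.5-fold in all 10 clusters, with ratios from 0.757 (0.485 to 1.18) in fibroblast-like cells to 1.39 (0.983 to 1.92) in neutrophil-like cells.

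Psmb8 and Psmb9 are inducible catalytic subunits of the immunoproteasome, and Psme1 is a subunit of the activator ring that caps the proteasome. Dendritic-like cells had the highest level of all 3 in both libraries: 992 and 917 CPM for Psmb8, 448 and 518 CPM for Psmb9, and 860 and 895 CPM for Psme1. In wild type neutrophil-like cells they stood at 106, 70.7 and 134 CPM, the lowest of the 10 clusters. The dendritic-like level was thus 9.37-fold the neutrophil-like one for Psmb8, 6.34-fold for Psmb9 and 6.43-fold for Psme1. Lymphoid cluster 4 came next for all 3 genes.

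Between libraries Psmb9 had a ratio above 1 in 10 of 10 clusters, as did 3.23% of the 3249 genes tested in all 10, and its interval lay above 1 in 7, as did that of 4.19% of them in at least 7. It was at 154 and 187 CPM in B-like cells (ratio 1.22, 1.11 to 1.33), 151 and 183 CPM in macrophage-like cells (ratio 1.21, 1.06 to 1.38), and 166 and 232 CPM in monocyte-like cells (ratio 1.40, 1.25 to 1.57). In dendritic-like cells, where neither heavy chain was higher, Psmb9 was at 448 and 518 CPM (ratio 1.16, 1.01 to 1.32). It was at least 1.5-fold higher in cluster 5 (132 and 229 CPM, ratio 1.73, 1.30 to 2.31, but 0.965 when the cells were clustered anew without these genes), in fibroblast-like cells (75.5 and 121 CPM, ratio 1.60, 0.889 to 2.96, from 19 and 35 UMIs) and in neutrophil-like cells. Of all genes in neutrophil-like cells, 52.1% were at least 1.5-fold higher.

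Psmb8, which lies on the far side of Tap1 from Psmb9, did not show this in every cell type. Its ratio was 1.27 (1.18 to 1.36) in monocyte-like cells, at 432 and 547 CPM, and 1.39 (1.12 to 1.73) in cluster 5. In the finer deposited clusters that hold most of these cells it was 1.00 (0.925 to 1.09) for monocyte-like cells (finer cluster 3) and 0.943 (0.721 to 1.24) for cluster 5 (finer cluster 7). It was 0.962 (0.910 to 1.02) in B-like cells, 0.961 (0.873 to 1.06) in macrophage-like cells and 0.925 (0.844 to 1.01) in dendritic-like cells. Psme1 had intervals above 1 in 2 clusters, monocyte-like (421 and 474 CPM, ratio 1.12, 1.04 to 1.21) and neutrophil-like (ratio 1.74, next to a median of 1.55 for all genes), and ratios from 0.936 to 1.25 elsewhere. The inducible subunits and the activator thus rank the cell types alike but did not show like ratios.

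**Figure D4:**
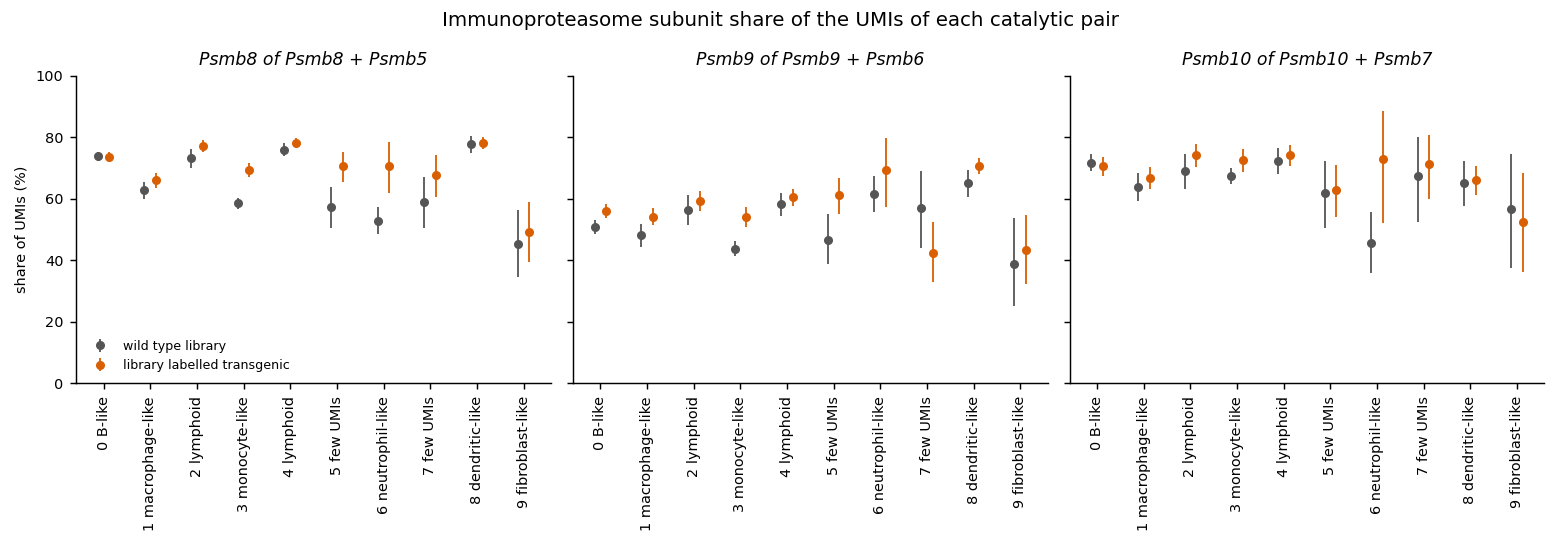
Share of UMIs (vertical axis, percent) of the inducible subunit within each catalytic pair, Psmb8 with Psmb5, Psmb9 with Psmb6 and Psmb10 with Psmb7, in the 10 deposited clusters, grey for wild type and orange for the library labelled transgenic, with exact 95% Clopper-Pearson intervals. Monocyte-like cells have separate intervals in the first pair (58.5% and 69.4%) and in the second (43.8% and 54.1%).

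Each inducible subunit takes the place of a constitutive one, Psmb8 of Psmb5, Psmb9 of Psmb6 and Psmb10 of Psmb7, so its share of the pair's UMIs was compared across clusters. Over the 3 pairs together the share in wild type cells ran from 45.5% (37.7 to 53.4) in fibroblast-like cells to 72.5% (70.1 to 74.7) in dendritic-like cells. In B-like cells it was 67.1% in wild type and 67.8% in the labelled transgenic library, and in dendritic-like cells 72.5% and 74.3%. It was 58.4% (56.3 to 60.4) and 62.1% (60.5 to 63.7) in macrophage-like cells. The widest gaps were in monocyte-like cells, from 56.2% (54.9 to 57.4) to 65.5% (63.9 to 67.2), in cluster 5, from 54.6% to 65.7%, and in neutrophil-like cells, from 55.0% to 70.5%. In the monocyte-like cells that fall into the largest finer deposited cluster (583 and 336 cells) the gap was narrower, with 62.3% and 65.3%. The labelled transgenic value of the 3 pairs together was the higher one in all 10 clusters, but in cluster 7 (60.1% and 61.3%) the direction turned under 3 alternatives: 63.8% and 59.1% for the mean of per-cell CPM, 69.1% and 62.3% in its largest finer cluster, and 61.7% and 61.3% without the cells of highest doublet scores. Single pairs did not all follow. The Psmb10 share was lower in B-like (71.8% and 70.6%) and fibroblast-like cells (56.7% and 52.5%), and its intervals met in every cluster. The Psmb8 share was 73.8% and 73.7% in B-like cells, and the Psmb9 share 56.9% and 42.5% in cluster 7. In macrophage-like cells the intervals met in each single pair. UMIs were not divided by length, so a share says nothing of how many proteasomes hold each subunit.

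Nlrc5, the transactivator of class I genes, had 2 to 135 UMIs per cluster and library, and its ratio was the largest of the 10 genes in each of the 8 clusters where it was tested. In the wild type library it stood at 34.7 CPM in lymphoid cluster 4, 33.9 CPM in lymphoid cluster 2, 14.5 CPM in dendritic-like cells, 13.3 CPM in macrophage-like cells, 9.11 CPM in monocyte-like cells and 7.13 CPM in B-like cells. In the labelled transgenic library the same clusters stood at 50.6, 49.5, 25.1, 23.1, 21.7 and 10.5 CPM. The lymphoid clusters were highest in both libraries, and all 9 neighbouring pairs in the order had overlapping intervals.

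The ratio was above 1 in all 8, as for 2.9% of the 1139 genes tested in 8 clusters. It was 2.38 (1.53 to 3.71) in monocyte-like cells, from 41 and 47 UMIs, and 1.73 (1.13 to 2.72) in macrophage-like cells, from 30 and 85 UMIs. Lymphoid clusters 2 and 4 gave 1.46 (1.03 to 2.11) and 1.46 (1.07 to 2.01), and B-like cells 1.48 (0.981 to 2.23). Cluster 5 gave 2.96 (1.18 to 8.85) from 6 and 24 UMIs. The interval lay above 1 in 5 of the 8, as for 1.49% of those genes in at least 5. In clusters 7 and 9 it had fewer than 20 UMIs and was not tested.

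In monocyte-like cells all 10 genes lay on one side. Each had a ratio above 1, and 9 of 10 had an interval above 1, B2m being the exception, where 17.2% of all genes in that cluster did. Such shares of all genes, here and below, were not matched for UMIs, and a gene with many UMIs has narrow intervals. Of the 10, 3 (Tap1, Tap2 and Nlrc5) were at least 1.5-fold higher, where 14.9% of all genes tested in that cluster were, and 0 were at least 1.5-fold lower, where 9.05% were. Their median log2 ratio was 0.33, and that of all genes in the cluster was 0.08. In finer deposited cluster 3, where most monocyte-like cells fall (636 and 390 cells), H2-D1 (0.959), B2m (0.974) and Psme1 (0.956) were below 1. Finer cluster 11, the second monocyte-like group, holds 217 wild type and 51 labelled transgenic cells. Wild type Psmb8 was at 206 CPM in it and at 508 CPM in finer cluster 3. The part of this mix in the ratios was not tested. Markers of other cells also moved in the monocyte-like cluster. T cell markers summed to 18.2 CPM in wild type and 72.5 CPM in the labelled transgenic library (10 of 10 detected in both), and dendritic cell markers to 148 and 590 CPM (10 markers, Siglech at 0 in wild type). NK cell markers summed to 13.3 and 67.0 CPM (8 markers, Ncr1 and Eomes at 0 in both and Prf1 in the labelled transgenic library), and neutrophil markers to 2431 and 251 CPM. Their part in the ratios was not tested.

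In macrophage-like cells, the cells in which the transgene is described to act, 1 of the 10 genes (Nlrc5) was at least 1.5-fold higher, against 8.66% of all genes, and 0 were lower, against 8.52%. The interval lay above 1 for 6 of the 10 (H2-K1, H2-D1, B2m, Tap2, Psmb9 and Nlrc5), against 8.79% of all genes. The median log2 ratio of the 10 was 0.20 and that of all genes −0.04. T cell markers summed there to 242 CPM in wild type and 554 CPM in the labelled transgenic library (10 of 10 detected in both), and NK cell markers to 43.1 and 279 CPM (8 markers, Ncr1 and Eomes at 0 in wild type), and their part was not tested.

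In B-like cells 0 of the 10 genes were at least 1.5-fold higher and 0 lower, against 7.22% and 5.61% of all genes, and 3 (H2-K1, Tap1 and Psmb9) had an interval above 1, against 12.8%. Lymphoid cluster 2 likewise had 0 and 0 (10.7% and 7.31%), and lymphoid cluster 4 had 0 and 0 (8.22% and 8.27%), as had cluster 7 among 9 genes tested (9.5% and 18.6%). In cluster 2 NK cell markers summed to 532 CPM in wild type and 1230 CPM in the labelled transgenic library. Innate lymphoid cell markers summed there to 1713 and 1307 CPM, and T cell markers to 2751 and 3137 CPM. In cluster 4 the same lists summed to 3746 and 6184, 1539 and 1333, and 5189 and 5519 CPM. In cluster 7 epithelial markers summed to 3845 and 5301 CPM and mast cell markers to 208 and 1166 CPM. The part of these markers was not tested. Cluster 5 had 3 higher (Tap2, Psmb9 and Nlrc5) and 0 lower, against 13.1% and 14.8%. The median log2 ratio of the 10 genes was 0.30 there, and −0.10 when the cells were clustered anew. Mast cell markers, whose genes lead this cluster, summed to 3553 CPM in wild type and 6205 CPM in the labelled transgenic library (8 of 8 detected in both), and monocyte markers to 7082 and 5033 CPM (10 of 10 in both), and their part was not tested. Dendritic-like cells had 1 higher and 0 lower, against 11.5% and 11.4%. The higher one was Nlrc5, from 10 and 40 UMIs, with an interval that held 1 (ratio 1.73, 0.852 to 3.89). Fibroblast-like cells had 1 of 9 higher (Psmb9) and 0 lower, against 13.5% and 21.3%. Endothelial markers summed there to 1883 CPM in wild type and 885 CPM in the labelled transgenic library (5 markers). Fibroblast markers summed to 19894 and 21338 CPM (8 markers), and the part of both was not tested.

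Neutrophil-like cells need a scale of their own. With 648 wild type and 167 labelled transgenic cells, and medians of 3527 and 1749 UMIs, the median log2 ratio over all genes was 0.63 in that cluster, while in the other 9 it stayed between −0.12 and 0.08. The summed neutrophil markers stood at 253908 CPM in wild type and 107260 CPM in the labelled transgenic library. There, 7 of the 10 genes were at least 1.5-fold higher, where 52.1% of all genes were, and 0 were lower (10.2% of all genes). Relative to the median of all genes 2 were at least 1.5-fold higher, Psmb8 and Nlrc5, and 1 was lower, H2-D1. The Nlrc5 ratio rests on 17 and 6 UMIs, and its interval held 1 (ratio 2.71, 0.87 to 7.19). Psmb8 was at 106 and 269 CPM (ratio 2.55, 1.98 to 3.25; log2 0.72 above the median of all genes). H2-D1 was at 2465 and 2327 CPM (ratio 0.944, 0.875 to 1.02; log2 −0.71 from that median). In the same cluster T cell markers summed to 37.1 and 303 CPM (10 of 10 detected in both) and B cell markers to 304 and 569 CPM (10 of 10 in both). NK cell markers summed to 13.8 and 403 CPM (8 markers, Prf1 and Eomes at 0 in both and Klrb1c in wild type), a ratio of 29.1. Mast cell markers (30.4 and 191 CPM, of 8 markers 1 at 0 in wild type and 4 in the labelled transgenic library), dendritic cell markers (55.3 and 233 CPM, of 10 markers 1 and 4 at 0), epithelial markers (248 and 787 CPM, 6 of 6 in both) and plasma cell markers (936 and 2267 CPM, of 7 markers 0 and 1 at 0) were higher too. The part of these markers was not tested.

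Over all 10 clusters, 16 of 98 tested pairs of gene and cluster (16.3%) were at least 1.5-fold higher, where 13.6% of the pairs of all genes were, and 0 were at least 1.5-fold lower, where 10.5% were. Outside neutrophil-like cells 9 of 88 (10.2%) were higher, next to 10.5% of all pairs, so the number of higher pairs was near the background, and 0 were lower, next to 10.5% of all pairs. Nlrc5 made up 4 of these 9. What the 10 genes showed was small and mostly in one direction, with a ratio above 1 in 78 of 98 pairs, against 51.1% of the pairs of all genes. When the cells were clustered anew without these genes, 64 of 96 ratios were above 1, and 76 of the 96 stayed on the same side of 1. In the largest finer deposited cluster of each, 73 of 96 were above 1, and 85 stayed on the same side.

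Neutrophil markers were lower in the labelled transgenic library in every cluster, those of other cell types included. They summed to 510 and 30.3 CPM in B-like cells, 549 and 117 CPM in macrophage-like cells and 3481 and 371 CPM in cluster 5. RNA free in the droplets reaches cells of every type, and it can carry class I RNA too. Its part in the ratios of the 10 genes was not tested.

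The 15 finer deposited clusters show that some of these ratios differ within a cell type. Most monocyte-like cells fall into finer cluster 3, led by Chil3 (636 and 390 cells). There H2-K1 gave 1.14 (1.09 to 1.20), H2-D1 0.959 (0.921 to 0.999) and Psmb9 1.13 (0.994 to 1.29), and 1 of 10 genes, Nlrc5 at 2.32 (1.38 to 3.93), was at least 1.5-fold higher, against 11.9% of all genes, and 0 were lower, against 8.84%. The second monocyte-like group, finer cluster 11, is led by Arg1, Saa3 and Nos2 and holds 217 and 51 cells. In it 6 of 10 were at least 1.5-fold higher, against 23.6% of all genes, and 0 were lower, against 19%.

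The genes of finer cluster 11 that passed 1.5-fold were Tap1, Tap2, Psmb8, Psmb9, Psme1 and Nlrc5. Tap2 was at 36.3 CPM in wild type and 122 CPM in the labelled transgenic library (ratio 3.35, 2.03 to 5.41), and Psmb8 at 206 and 574 CPM (ratio 2.79, 2.25 to 3.44). Psmb9 was at 91.6 and 210 CPM (ratio 2.29, 1.61 to 3.21). Both heavy chains were higher here by like amounts, H2-K1 with 1.45 (1.28 to 1.63) and H2-D1 with 1.46 (1.32 to 1.61). These values rest on 51 cells of the labelled transgenic library.

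**Figure D5:**
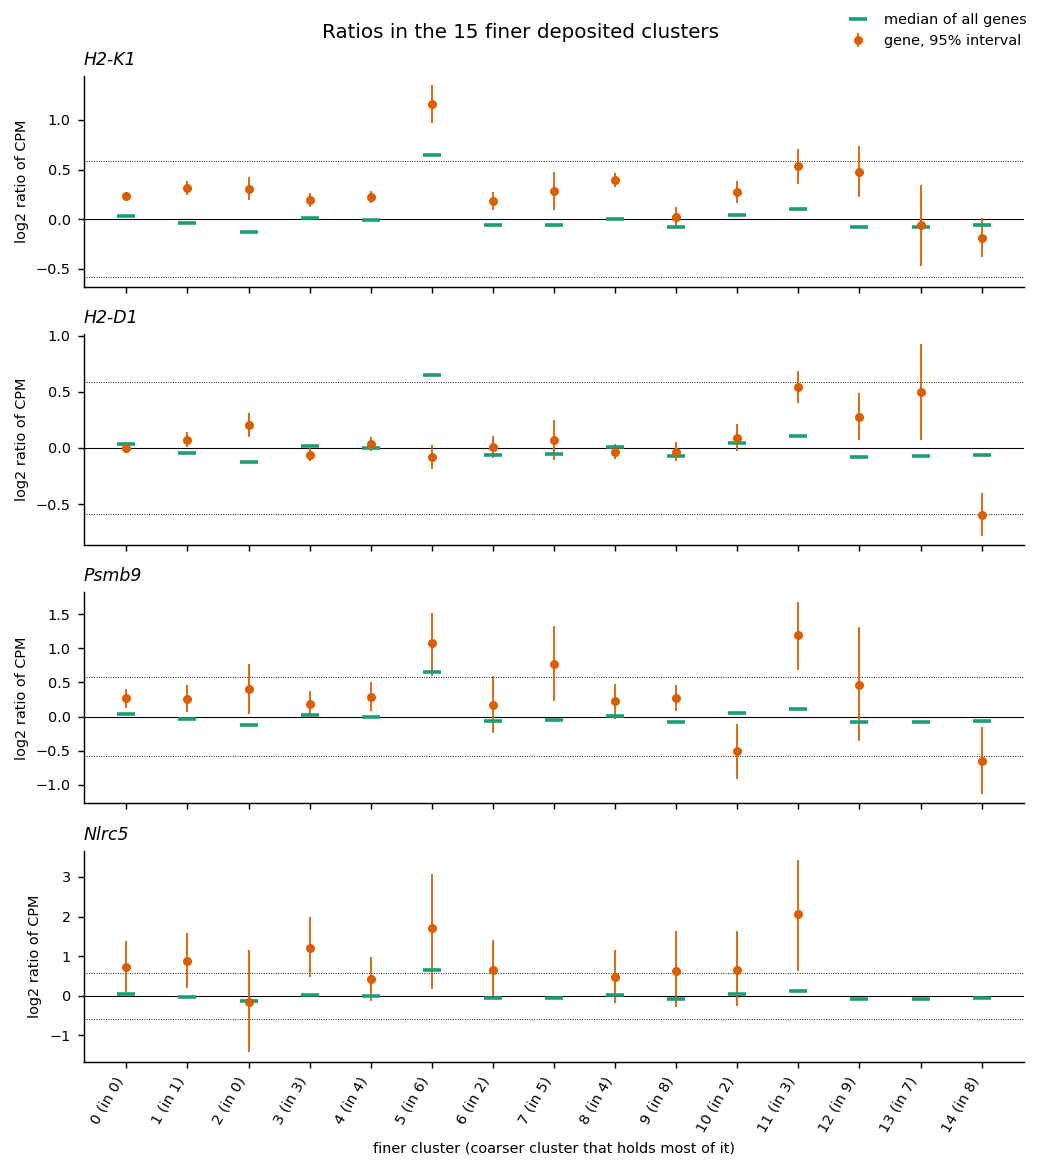
Log2 ratio of CPM in the library labelled transgenic over the wild type library (vertical axes) for H2-K1, H2-D1, Psmb9 and Nlrc5 in the 15 finer deposited clusters (horizontal axis, with the coarser cluster that holds most of each), with exact 95% intervals where at least 20 UMIs were counted, green dashes for the median of all genes and dotted lines at 1.5-fold. Finer cluster 11 lies above 0 and finer cluster 14 lies below 0 for H2-D1 and Psmb9.

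In finer cluster 14, led by Cox6a2 and Siglech, with 22 and 48 cells, 3 of 9 genes tested were at least 1.5-fold lower, against 15.3% of all genes, and 0 were higher, against 12.8%. H2-D1 was at 3334 and 2211 CPM (ratio 0.663, 0.582 to 0.756), Psmb9 at 521 and 333 CPM (ratio 0.639, 0.456 to 0.900), and Tap1 at 137 and 90.8 CPM (ratio 0.664, 0.338 to 1.34). Finer cluster 9 (176 and 376 cells, of which 108 and 225 are dendritic-like) gave 0.977 (0.920 to 1.04) for H2-D1 and 1.21 (1.06 to 1.38) for Psmb9. Psmb9 was below 1 also in finer cluster 10, led by Lef1 and Dapl1 within lymphoid cluster 2, at 187 and 131 CPM (ratio 0.701, 0.528 to 0.931). Over the finer clusters H2-K1 was above 1 in 13 of 15, as were 9.12% of genes tested in 15, and Nlrc5 in 10 of 11 tested, as were 7% of genes tested in 11.

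Barcodes that the metadata leave out carry no cluster and were kept apart: over them 8 of the 10 genes had an interval above 1, against 25.2% of all genes, and 2 (H2-D1 and B2m) had one below 1, against 21.4%. These shares of all genes were not matched for UMIs.

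Other genes of the route were followed as lists. Among 10 genes for loading and trimming, such as calreticulin and the aminopeptidases, 0 of 88 tested pairs outside neutrophil-like cells were at least 1.5-fold higher and 3 were lower (10.5% each way for all genes). The clearest was Pdia3, a thiol oxidoreductase of the loading complex, at 526 and 304 CPM in macrophage-like cells (ratio 0.578, 0.532 to 0.627). All counts of lists that follow also leave out neutrophil-like cells, and the same 10.5% each way is their background. Among 17 constitutive proteasome and activator genes 6 of 152 pairs were higher and 3 lower. For both lists the share past 1.5-fold was below that of all genes. The background counts every gene with at least 20 UMIs, and genes with few UMIs pass 1.5-fold more readily by counting error. It was not matched for UMIs, so a lower share may reflect depth alone.

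Among 16 other class I and class I-like genes 15 of 85 pairs (17.6%) were higher and 2 lower, and the genes that recurred were H2-Q6 and H2-Q7, nonclassical heavy chains. H2-Q6 was at 29.3 and 86.3 CPM in macrophage-like cells (ratio 2.94, 2.25 to 3.90), at 171 and 289 CPM in lymphoid cluster 2 (ratio 1.69, 1.45 to 1.97) and at 120 and 182 CPM in B-like cells (ratio 1.51, 1.37 to 1.67). H2-Q7 was at 77.7 and 187 CPM in macrophage-like cells (ratio 2.41, 2.04 to 2.86) and at 584 and 907 CPM in lymphoid cluster 4 (ratio 1.55, 1.44 to 1.67). These ratios were larger than those of H2-K1 in the same clusters, with intervals that did not meet.

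Among 11 interferon gamma targets 26 of 74 pairs (35.1%) were higher and 5 (6.76%) lower, next to 10.5% each way for all genes. In macrophage-like cells Cxcl9, a chemokine that draws T cells, was at 10.2 and 86.8 CPM (ratio 8.50, 5.56 to 13.6), and Gbp4, a guanylate-binding protein, at 11.1 and 26.6 CPM (ratio 2.39, 1.53 to 3.88). In monocyte-like cells Cxcl9 was at 54.2 and 146 CPM (ratio 2.68, 2.26 to 3.18) and Gbp2 at 34.9 and 86.8 CPM (ratio 2.49, 2.00 to 3.10). Of the 22 regulators 20 of 183 pairs (10.9%) were higher, near the 10.5% of all genes, and 9 (4.92%) were lower. In monocyte-like cells Irf1, a transcription factor that acts on many class I route genes, was at 47.3 and 76.7 CPM (ratio 1.62, 1.31 to 1.99).

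Of the 8 receptors that see class I, 13 of 37 pairs (35.1%) were higher and 4 (10.8%) lower, next to 10.5% each way for all genes. This background was not matched for UMIs, and genes with few UMIs pass 1.5-fold more readily. In macrophage-like cells 4 of 6 tested were higher. T cell and NK cell markers also summed higher there (242 and 554 CPM, 43.1 and 279 CPM), and their part was not tested. Cd8a, the CD8 coreceptor chain, was at 285 and 440 CPM in lymphoid cluster 4 (ratio 1.55, 1.39 to 1.72). Klrd1, a chain of NK cell receptors for class I, was at 57.6 and 195 CPM in lymphoid cluster 2 (ratio 3.39, 2.65 to 4.40). Fewer cells of a type and less RNA per cell cannot be told apart in these sums.

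Likeness of pattern was measured over 20 points (10 clusters in 2 libraries) as Pearson's r of log2 of CPM plus 10, among 4877 genes with at least 1000 UMIs. The points share libraries, depth and free RNA, so r is a description. Among the 10 genes the closest pair was Psmb8 and Psme1 (r = 0.95), while H2-D1 and Tapbp were the least alike (r = 0.12). Outside them, Psme2, the partner subunit of the activator, was most like Psme1 (r = 0.95) and Psmb9 (r = 0.90), H2-Q7 was most like H2-K1 (r = 0.94), and Ccl5, a chemokine of lymphocytes, was most like Nlrc5 (r = 0.92). Itgb7, an integrin chain of gut-homing leukocytes, was most like Tap1 (r = 0.92).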

How the data were processed

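Live CD45+ cells of 2 libraries, wild type and labelled transgenic, were analysed. The authors deposited UMI counts per gene and barcode, and metadata with cluster numbers and percent values (mitochondrial and immunoglobulin UMIs) per cell, per the file headers. Cell Ranger 5.0.0, Seurat 4.0 and mm10 appear in the submitters' processing notes, with no step given to each. The percent values were not used further.

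The genes, the lists and the rule for named genes (every gene of the 10 in every cluster, and at most 3 genes of a list per cluster, those whose interval bound nearest to 1 is farthest from it) were chosen with earlier results of these data known. Counts of the metadata cells (20511285 and 19962473 UMIs) were summed per library and deposited cluster and divided by their total to give CPM. Intervals are Poisson for levels, Clopper-Pearson for shares and conditional binomial for ratios, all exact. Genes with at least 20 UMIs over both libraries were tested, in the sense of being compared, and a ratio of 1.5 or its inverse was the threshold. The ratio and interval code was tested on simulated data. Doublets were not removed: Scrublet, run through scanpy, called 0 and 1 barcodes with its automatic threshold and so did not work, and leaving out the 8% of highest scores was an alternative. The other alternatives were scaling by the median of ratios, totals without the 20 highest genes, the mean of per-cell CPM, cells with at least 1000 UMIs, the finer deposited clusters, a new clustering without the genes described, other UMI minimums and 2-fold. H2-T10 was not matched among the feature names. Of repeated symbols (38) the first entry was used. Promoters came from RefSeq on GRCm38.p6. Python 3.11.15, numpy 2.4.6, scipy 1.17.1, pandas 2.3.3, scanpy 1.11.5 and matplotlib 3.10.9 were used.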

Additional observations from a re-analysis of the deposited data

Results flagged for a closer look

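Barcodes outside the deposited metadata (3389 wild type and 3117 labelled transgenic) hold 65.6% and 57.8% of the UMIs of the 10 genes and are in none of the clusters. Of the UMIs of all genes they hold more, 70.4% in wild type and 66.1% in the labelled transgenic library. Over these barcodes 8 of the 10 had an interval above 1, where 25.2% of all genes did, a share not matched for UMIs. The ratio was 2.01 for Nlrc5, 1.46 for Tap1, 1.33 for Tap2, 1.32 for Psmb9, 1.21 for H2-K1, 1.18 for Tapbp, 1.16 for Psme1 and 1.13 for Psmb8. H2-D1 (0.974) and B2m (0.894) had intervals below 1, as did 21.4% of all genes. The median log2 ratio of all genes was 0.03. These barcodes carry no cluster, so their mix of cells may differ between libraries, which was not tested.

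Some genes passed 1.5-fold in opposite directions in different clusters with both intervals away from 1, and the difference between the clusters was not tested. Psmb9 gave 2.29 in finer cluster 11 (Arg1, Saa3 and Nos2) and 0.639 in finer cluster 14 (Siglech). Nfya, a subunit of the factor that binds the Y box, gave 1.75 (17 and 61 UMIs) in lymphoid cluster 2 and 0.357 (24 and 10 UMIs) in cluster 7. Cxcl10, a chemokine, had 0 UMIs in wild type and 68 in labelled transgenic dendritic-like cells, at least 9.82-fold higher when 3 counts over the cluster are taken as the floor, and 0.597 in lymphoid cluster 2, which became 1.23 in the new clustering, so that the opposition was lost. Cd8b1, a CD8 chain, gave 3.998 in macrophage-like cells and 0.535 in lymphoid cluster 2, but 2.81 in the largest finer cluster of cluster 2, where it was higher as well. T cell markers summed to 242 and 554 CPM in macrophage-like cells, and their part in the Cd8b1 ratio was not tested.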

How the results depend on the processing

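No paired analysis was possible because each genotype is 1 library, and for the same reason no replicate could be left out. Of 320 values recomputed for 46 counts, medians and shares, 280 kept within a tolerance and 40 did not. The tolerance was the exact interval for shares, 1.5 times for counts and, for the median log2 ratio of the genes in a cluster, the medians of their intervals' lower and upper bounds, which is wide. Within it the median still fell from 0.83 to 0.21 (median of ratios) and 0.46 (totals without the 20 highest genes) in neutrophil-like cells, and in the new clustering from 0.34 to 0.07 in cluster 7, from 0.11 to 0.01 in cluster 2 and from 0.04 to −0.05 in cluster 8. Of the single gene ratios past 1.5-fold, 5 turned to the other side of 1. Scaling by the median of ratios gave 10 pairs at least 1.5-fold higher and 1 lower, and 3 genes past 1.5-fold in neutrophil-like cells, where totals without the 20 highest genes gave 4. A 2-fold threshold gave 6 higher pairs, with 1 gene in cluster 3, 1 in cluster 5, 4 in cluster 6 and 0 in clusters 1, 8 and 9. The mean of per-cell CPM gave 1 lower pair and 2 genes in cluster 9, where no UMI minimum also gave 2. Cells with at least 1000 UMIs gave 1 gene in cluster 0, 1 in cluster 2 and 2 in cluster 7. Without the highest Scrublet scores there was 1 lower pair, 1 gene in cluster 4, 5 in cluster 5 and 3 in cluster 9. In the largest finer cluster of each there was 1 gene in clusters 0, 2, 3 and 4 and 2 in cluster 9. The median log2 ratio was there 0.15 in cluster 3 and 0.054 in cluster 5, and the share of inducible subunits was 63.5% (cluster 2, wild type), 62.3% (cluster 3, wild type), 62.2% (cluster 5, labelled transgenic) and 69.1% (cluster 7, wild type). Cd8b1 gave 2.81 in cluster 2 and Cxcl10 0.793 in cluster 4. The new clustering (27 clusters, 84.2% of cells kept their class) gave 1 lower pair, 1 gene in cluster 0, 1 in cluster 2 and 0 in cluster 9. Its shares were 62.7% and 69.2% in cluster 5 and 72.4% in cluster 8 (labelled transgenic). In cluster 5 its median log2 ratio was −0.10, Psmb9 gave 0.965 and Hfe 0.334, and in cluster 2 Cxcl10 gave 1.23. The cause was not tested. The H2-K1 ratio stayed above 1 under every alternative in clusters 0, 1, 2, 3, 4, 6, 7 and 9 (1.11 to 2.19) and was 0.934 in cluster 5 in the new clustering, and that of Nlrc5 stayed between 1.28 and 4.67. Depth limits Nlrc5 in clusters 7 and 9, where its intervals ran from 0.305 to 6.19 and from 0.355 to 22.8, so that differences of several fold were not detectable.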
